A study of Homo sapiens with 6 samples.

Results

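The keratin gene clusters were examined as 2 windows of the hg19 genome: the type I cluster with its flanks on chromosome 17, from 38.75 to 39.85 Mb, and the type II cluster with KRT18 and its flanks on chromosome 12, from 52.50 to 53.40 Mb. Every ChIP-seq peak with its summit in a window was taken, which gave 90 of the 35687 peaks of the series: 27 of 9769 for BRD8 in Calu3, 27 of 9505 for BRD8 in 16HBE14o- and 36 of 16413 for CTCF in Calu3. The windows and not the signal chose the peaks. Calu3 is a human lung adenocarcinoma line and 16HBE14o- a human bronchial epithelial line; neither was treated. Both were grown in DMEM with 10% FBS per the labels, and CTCF was mapped in Calu3 only. The 6 samples are 2 replicates of each of 3 experiments, and the authors merged each pair into 1 list by the irreproducible discovery rate, a measure of how well the ranks of a peak match between replicates. No value per replicate was used here, so no difference below could be set against a spread between replicates, and the intervals cover counting error only. The depth of the libraries is unknown.

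Keratins are the intermediate filament proteins of epithelial cells. A type I (acidic) and a type II (basic) chain pair to build a filament, and the pair depends on the cell. KRT5 with KRT14 is the pair of basal cells, and KRT8 with KRT18 that of simple epithelium, the columnar layer of the airway included. KRT7 and KRT19 also belong to simple epithelia, KRT6A and KRT17 are induced in stressed or wounded epithelium, KRT13 marks stratified mucosa, and KRT15 is a basal cell keratin. Nearly all genes of a type lie side by side on 1 chromosome, with KRT18, a type I gene, placed next to KRT8 in the type II cluster. CTCF is a zinc finger protein found at insulators and chromatin loop anchors, and BRD8 carries a bromodomain, a fold that reads acetylated histones, and is part of the TIP60 acetyltransferase complex.

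In the RefSeq annotation of GRCh38.p14, the type I cluster holds 28 protein-coding keratin genes and 34 genes of keratin-associated proteins, the hair shaft proteins that surround the filaments. Read upwards along the chromosome, it begins after SMARCE1 with KRT222, passes the keratin-associated genes in its middle, reaches KRT13, KRT15, KRT19, KRT9, KRT14, KRT16 and KRT17, and is followed by EIF1. The type II cluster holds 27 keratin genes. It begins after SMIM41 with KRT80 and KRT7, continues through the hair keratins to KRT6A and KRT5, ends with KRT8 and KRT18, and is followed by EIF4B. The peaks are on hg19 and this annotation is on another build, so it gives names and order here. No peak was assigned to a gene, promoter, exon or intron, and no keratin gene has a value of its own. Sequences under the peaks were not analysed here.

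BRD8 summits of either line were denser at both ends of the type II window and at the high end of the type I window than between the ends. CTCF summits were denser than in the inner parts at the low end of the type II window and at the high end of the type I window. Each window was divided into an inner part and an edge, the outer 100 kb at each end. These edges are parts of the windows and not borders of the clusters. Which genes lie in an edge was not determined, so an edge may hold keratin genes. BRD8 summits numbered 14 at the edges (0.400 Mb) and 13 inside (1.60 Mb) in Calu3, and the same 14 and 13 in 16HBE14o-. That is 35.0 summits per Mb at the edges and 8.12 inside in either line. CTCF had 15 summits at the edges, or 37.5 per Mb, and 21 inside, or 13.1 per Mb. Over both windows the density was 13.5 per Mb for BRD8 in each line and 18.0 for CTCF. Over the genome it was 3.22 per Mb for BRD8 in Calu3, 3.13 for BRD8 in 16HBE14o- and 5.41 for CTCF. Chromosome 17 is richer in peaks as a whole, with 7.25, 6.71 and 12.5 per Mb in the same order, and chromosome 12 had 3.32, 3.38 and 6.90 per Mb. The contrast between edges and inner part was therefore uneven: the inner part of the type I window had 4.44 BRD8 summits per Mb in each line, fewer than its chromosome, whereas that of the type II window had 12.9 per Mb in each line, more than its chromosome. CTCF had 10.0 summits per Mb inside the type I window and 17.1 inside the type II window, where the high edge, with 20.0 per Mb, rests on 2 peaks. With edges of 200 kb the inner part of the type I window held 1 BRD8 summit in each line, and that of the type II window 2 in each.

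**Figure D1:**
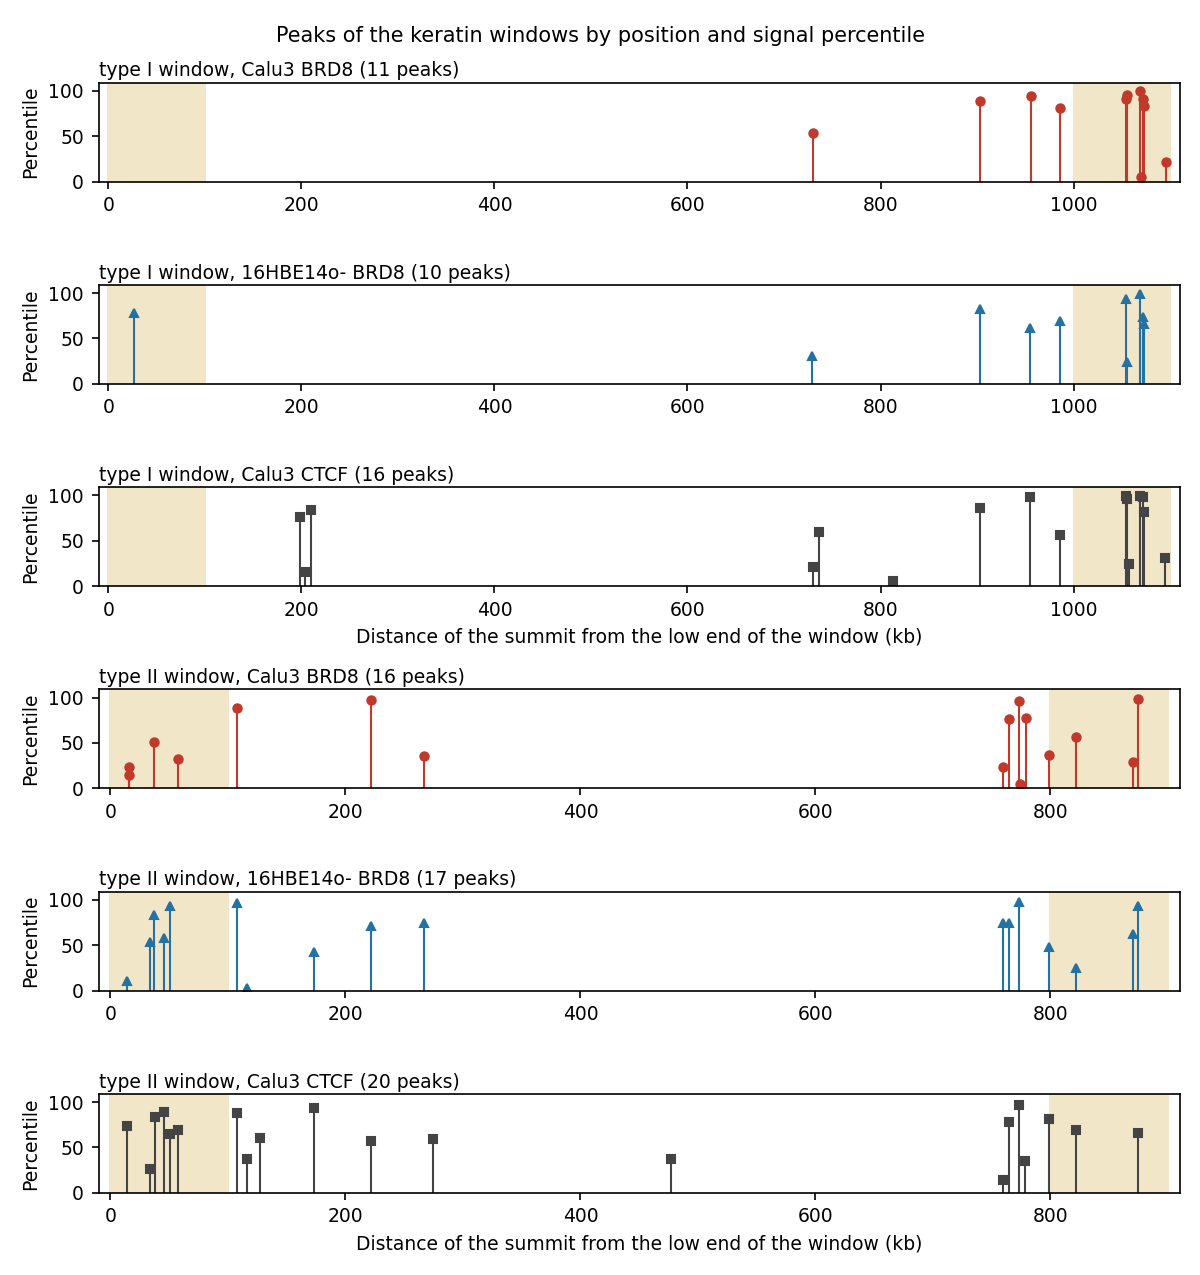
Summits of the 3 lists along the type I and type II windows (x axis, distance in kb from the low end of the window) against the percentile of each peak's signal within its own list (y axis, 100 is the strongest). Shaded bands are the outer 100 kb at each end; in the type II window neither BRD8 list has a summit between 267 and 759 kb.

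The edges were unlike one another. The high edge of the type I window, on the EIF1 side, held 7 BRD8 peaks in Calu3, 5 BRD8 peaks in 16HBE14o- and 7 CTCF peaks within 100 kb. For comparison, the genome was read in 100 kb stretches that started every 50 kb. Of those 60693 stretches, 0.168% held at least 7 Calu3 BRD8 summits, 0.315% at least 5 16HBE14o- BRD8 summits and 0.442% at least 7 CTCF summits. Most stretches were empty: 82.0% had no Calu3 BRD8 summit, 79.3% no 16HBE14o- BRD8 summit and 70.7% no CTCF summit. No such share was computed for occupied stretches or for chromosome 17 or 12 alone. The low edge of the type II window held 4, 5 and 6 peaks in the same order, with 1.55%, 0.315% and 0.822% of stretches holding at least as many. Its high edge held 3 BRD8 peaks in Calu3, 3 in 16HBE14o- and 2 CTCF peaks, a number reached by 3.32%, 2.38% and 12.6% of stretches. The low edge of the type I window, on the SMARCE1 side, had a single peak, BRD8 in 16HBE14o- at chr17:38776265-38776488, and 20.7% of stretches held at least 1 such peak. It stood at percentile 78.5 of its list, 288 kb from the nearest Calu3 BRD8 summit and 172 kb from the nearest CTCF summit.

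Long stretches between the edges had no BRD8 in either line. In the type II window the longest gap was 493 kb in both lines, between summits at 52766502 and 53259278 in Calu3 and at 52766507 and 53259316 in 16HBE14o-. The gap was thus bounded by the same 2 sites in both lines. CTCF had 2 peaks in it that overlapped no BRD8 peak, at chr12:52774090-52774379 (percentile 59.3) and chr12:52976788-52977077 (percentile 37.2). In the type I window, 16HBE14o- BRD8 had a gap of 702 kb from its low-edge peak to 39478769. Calu3 BRD8 had its first summit at 39480554, 731 kb into the window, so its longest gap between summits within the window was 173 kb. CTCF had a gap of 521 kb there, from 38959949 to 39480521. Gaps of such length are not rare in these lists. The share of all gaps between neighbouring summits that were at least as long was 11.9% for the type II gap in Calu3 BRD8, 13.5% for that in 16HBE14o- BRD8 and 14.2% for the longest CTCF gap there, of 282 kb. For the type I window the shares were 28.1%, 9.38% and 7.09%. The 28.1% is for the 173 kb gap within the window only. The Calu3 stretch without BRD8 over the low part of the window was longer. It ran from a summit at 38488492, 262 kb before the window, to 39480554, and its share was not computed.

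**Figure D2:**
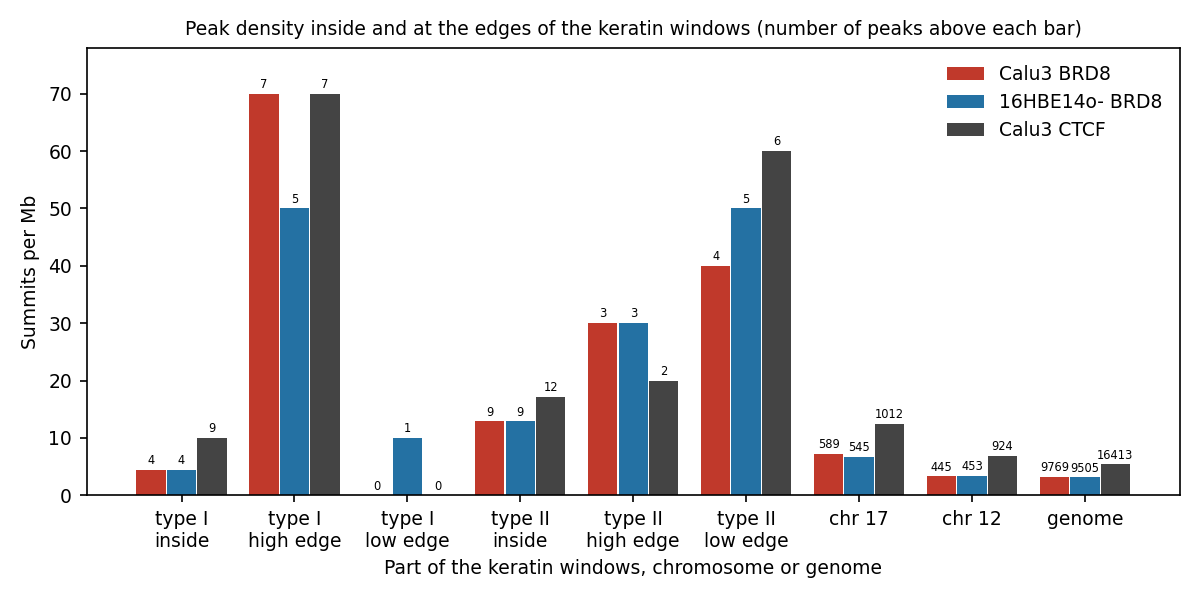
Summits per Mb (bars, y axis) for each list inside and at each edge of the 2 windows, beside chromosomes 17 and 12 and the genome (x axis), with the number of peaks above each bar. The high edge of the type I window holds 7 Calu3 BRD8, 5 16HBE14o- BRD8 and 7 CTCF summits, the highest density shown for each list, which 16HBE14o- BRD8 reaches also in the low edge of the type II window.

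The lines had equal numbers of BRD8 peaks in the windows. The ratio of list shares, Calu3 over 16HBE14o-, was 0.973 (exact 95% interval 0.549 to 1.72) over both windows, 1.07 (0.413 to 2.81) in the type I window with 11 and 10 peaks, and 0.916 (0.433 to 1.93) in the type II window with 16 and 17 peaks. The intervals are wide and leave room for a difference in number in either direction. Over the 2 chromosomes as a whole the ratio was 1.05 (0.934 to 1.18) on chromosome 17 and 0.956 (0.837 to 1.09) on chromosome 12.

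The lines mostly shared their BRD8 sites here. Of the 27 Calu3 peaks 20 overlapped a 16HBE14o- peak by at least 1 bp, or 74.1% (exact 95% interval 53.7 to 88.9%), against 50.1% of the whole Calu3 list. In the other direction 19 of the 27 16HBE14o- peaks were met by Calu3, or 70.4% (49.8 to 86.2%), against 43.4% of that list. CTCF overlap was 77.8% for Calu3 BRD8 (21 of 27, 57.7 to 91.4%), against 70.5% of the list, which lies within the interval. It was 85.2% for 16HBE14o- BRD8 (23 of 27, 66.3 to 95.8%), against 65.3% of the list. From the side of CTCF, 20 of 36 peaks had BRD8 in Calu3 (55.6%, 38.1 to 72.1%, against 36.1% of all CTCF peaks) and 23 of 36 in 16HBE14o- (63.9%, 46.2 to 79.2%, against 38.0%). BRD8 of both lines was found at 17 of the 36 (47.2%, 30.4 to 64.5%, against 21.8%) and BRD8 of neither at 10 (27.8%, 14.2 to 45.2%, against 47.7%). The BRD8 peaks of the lines differ in width. With every peak set to 200 bp around its summit, 66.7% of the BRD8 peaks of either line were shared, against 44.8% of the whole Calu3 list and 42.8% of the whole 16HBE14o- list. A reciprocal overlap of at least 50% could not be read between the lines, because a 16HBE14o- peak of 224 bp covers at most 47.1% of a Calu3 peak of 476 bp. That criterion put CTCF at 48.1% of Calu3 BRD8 peaks, and width bears on this share too. At chr12:53321136-53321611 the summits were 4 bp apart, yet the CTCF peak of 84 bp is too narrow for the BRD8 peak of 476 bp. No whole-list share under this criterion is given here. Signal moved with these shares. The median percentile of the peaks in the windows was 76.2 in Calu3 BRD8, 71.7 in 16HBE14o- BRD8 and 69.3 in CTCF, where the median of a whole list is 50 by construction, and in each whole list the peaks that overlapped ranked higher. The part of signal in the shares was not tested. The shares in the inner parts of the windows and at their edges had intervals that overlapped. For Calu3 BRD8 at CTCF they were 12 of 13 inside (64.0 to 99.8%) and 9 of 14 at the edges (35.1 to 87.2%). For CTCF with BRD8 of neither line they were 8 of 21 inside (18.1 to 61.6%) and 2 of 15 at the edges (1.66 to 40.5%).

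**Figure D3:**
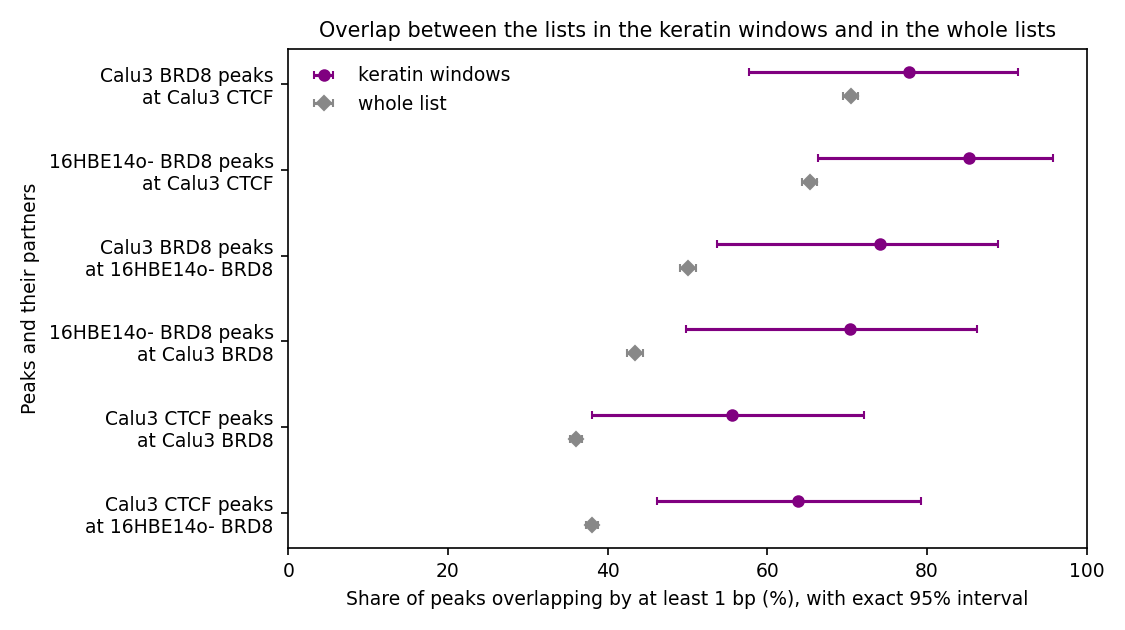
Share of peaks of each list that overlapped a peak of another by at least 1 bp (x axis, percent) in the keratin windows (circles) and in the whole list (diamonds), with exact 95% intervals for counting error. The interval of the windows contains the whole-list share for Calu3 BRD8 at CTCF and lies above it for the other 5 pairs. For 16HBE14o- BRD8 at CTCF the lower limit is 66.3% against 65.3%, and for CTCF at Calu3 BRD8 it is 38.1% against 36.1%. The intervals treat peaks as independent, which neighbouring peaks are not.

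Joined by overlap, the 90 peaks formed 43 sites, 20 in the type I and 23 in the type II window. All 3 lists met at 17 sites (39.5%, against 16.8% of the 21110 sites of the genome). CTCF stood alone at 10 (23.3%, against 35.8%). A Calu3 CTCF peak met BRD8 of 16HBE14o- alone at 6 sites (against 12.5% of genome sites) and BRD8 of Calu3 alone at 3 (against 10.6%). BRD8 without CTCF was found at 2 sites in 16HBE14o- alone (against 12.9%), at 3 in Calu3 alone (against 8.71%) and at 2 in both lines (against 2.67%). All 6 sites with CTCF and with BRD8 of 16HBE14o- alone lay in the type II window, 4 of them in its low edge. CTCF stood alone at 7 of 20 type I sites and at 3 of 23 type II sites. The 2 sites with BRD8 of 16HBE14o- and no other list lay in the type I window, and the 2 with BRD8 of both lines without CTCF in the type II window. These numbers are small, and no difference between the windows was tested.

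The strongest site of the windows lay in the high edge of the type I window. At chr17:39818902-39819305 BRD8 ranked 8 in the Calu3 list, with a signal of 291, and 39 in the 16HBE14o- list, with a signal of 95.9, and CTCF ranked 22, with a signal of 330. Signals are the authors' and are read within a list only. The BRD8 summit was 4 bp from that of CTCF in Calu3 and 31 bp from it in 16HBE14o-. The site had close neighbours. At chr17:39822085-39822560 the Calu3 BRD8 and CTCF summits fell on the same base, with percentiles of 91.2 for BRD8 in Calu3, 73.8 for BRD8 in 16HBE14o- and 97.9 for CTCF. At chr17:39823116-39823591 the percentiles were 83.1, 65.8 and 81.4 in the same order. A Calu3 BRD8 peak at chr17:39820081-39820556 between these sites had neither a 16HBE14o- nor a CTCF peak and was weak, at percentile 5.42.

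At a pair of sites on the same edge, each with BRD8 in both lines, the lines ranked the first alike and the second unlike. At chr17:39804218-39804465 BRD8 stood at percentile 90.7 in Calu3 and 93.2 in 16HBE14o-, with CTCF at 98.8. At the neighbouring chr17:39804847-39805149 BRD8 stood at percentile 95.4 in Calu3 and 23.8 in 16HBE14o-, with CTCF at 96.0. This difference of 71.6 percentile points was the widest of the 19 sites with BRD8 in both lines. Of the 4890 Calu3 BRD8 peaks that overlap one of 16HBE14o-, 2.11% had a difference at least as large in that direction. The site was picked as the widest of the 19, so this share of single peaks does not measure how unusual it is. A percentile gives rank within a list and not strength of binding. The remaining sites of the edge were a CTCF peak at chr17:39807682-39807971 (percentile 24.5) and, at the end of the window, CTCF at chr17:39844285-39844574 (percentile 30.9) and Calu3 BRD8 at chr17:39845266-39845741 (percentile 21.5), whose summits were 1074 bp apart and whose peaks did not overlap.

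In the inner part of the type I window, 3 sites were common to all lists and all lay towards its high end, the KRT17 side. At chr17:39652919-39653394 the percentiles were 88.8 for BRD8 in Calu3, 82.0 for BRD8 in 16HBE14o- and 86.6 for CTCF, and at chr17:39735734-39736209 they were 81.3, 69.6 and 56.6. At chr17:39705170-39705859 BRD8 stood at percentile 94.9 in Calu3 and 62.0 in 16HBE14o-, with CTCF at 98.2. That site was counted as shared only through the width of the peaks. The 16HBE14o- BRD8 summit lay 2 bp from the CTCF summit, but the Calu3 BRD8 summit lay 338 bp from it and 340 bp from that of 16HBE14o-. Near 39.48 Mb the lines each had a peak of their own. Calu3 BRD8 at chr17:39480316-39480791 (percentile 53.3) overlapped a CTCF peak of percentile 21.1, and 16HBE14o- BRD8 at chr17:39478657-39478880 (percentile 30.5) had its summit 1785 bp away from that of Calu3 and no CTCF.

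At the remaining sites in the inner part of the type I window CTCF stood without BRD8. A group of 3 CTCF peaks stood at chr17:38948119-38948408 (percentile 76.4), chr17:38953210-38953499 (percentile 15.0) and chr17:38959942-38960018 (percentile 83.4). The nearest BRD8 summit was 460 to 471 kb away from them in Calu3 and 172 to 184 kb away in 16HBE14o-. CTCF stood alone also at chr17:39485663-39485952 (percentile 59.7) and chr17:39562607-39562896 (percentile 6.06). The 10 CTCF peaks without BRD8 in both windows had a median percentile of 48.3 (6.06 to 83.4), and the 26 with BRD8 one of 79.2 (14.7 to 99.9). Over the whole list the medians were 34.1 and 64.7.

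All 3 lists met at 1 of 7 sites in the low edge of the type II window, on the KRT80 side, against 16.8% of genome sites. This was chr12:52537205-52537680, with percentiles of 50.8 for BRD8 in Calu3, 83.8 for BRD8 in 16HBE14o- and 83.1 for CTCF. A Calu3 CTCF peak met BRD8 of 16HBE14o- alone at 4 of the 7 sites, against 12.5% of genome sites. The strongest of these for BRD8 was chr12:52550582-52550871, at percentile 92.9 with CTCF at 64.6. The others were chr12:52513893-52514116 (BRD8 10.6, CTCF 73.3), chr12:52533313-52533602 (BRD8 53.7, CTCF 26.2) and chr12:52545900-52546132 (BRD8 58.3, CTCF 88.6). BRD8 was listed in Calu3 alone at chr12:52557631-52558106, at percentile 32.8 with CTCF at 69.3, and as 2 overlapping peaks without CTCF at chr12:52515194-52515964, the stronger at percentile 23.1. The summit of the weaker was 1427 bp from the 16HBE14o- peak at 52514005, so the lines had neighbouring and not identical peaks there. All 6 CTCF peaks of this edge had BRD8 in at least 1 line, whereas 47.7% of all CTCF peaks had it in neither.

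In the inner part of the type II window, on its lower side, all 3 lists met at 2 sites. One, chr12:52607225-52607700, was strong in each list, with percentiles of 88.2 for BRD8 in Calu3, 96.4 for BRD8 in 16HBE14o- and 88.3 for CTCF. At the other, chr12:52721340-52721632, BRD8 ranked 247 in Calu3 (percentile 97.5) and stood at 71.7 in 16HBE14o-, whereas CTCF stood at 57.1. The Calu3 BRD8 percentile exceeded that of CTCF there by 40.3 points, which 6.70% of the 6883 Calu3 BRD8 peaks at CTCF peaks equalled or passed. CTCF at chr12:52672822-52673063 was strong (percentile 93.7) with BRD8 in 16HBE14o- alone (percentile 42.7), and the nearest Calu3 BRD8 summit was 48.5 kb away. BRD8 of 16HBE14o- alone was also listed at chr12:52615803-52616120 (BRD8 2.99, CTCF 37.5), and CTCF alone at chr12:52626757-52627046 (percentile 60.7). At chr12:52766264-52766739, on the border of the long gap, BRD8 was listed in both lines with summits 5 bp apart, at percentile 35.6 in Calu3 and 74.7 in 16HBE14o-, and the nearest CTCF summit was 7.73 kb away.

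Beyond the gap, towards KRT8 and KRT18, BRD8 was listed in both lines at 7 of 8 sites. Of all genome sites, 16.8% had BRD8 of both lines with CTCF and 2.67% had it without CTCF. The strongest of the 7 in the inner part of the window was chr12:53273316-53273893. Its percentiles were 96.4 for BRD8 in Calu3, 98.0 for BRD8 in 16HBE14o- and 96.4 for CTCF, with a second, weak Calu3 BRD8 peak (percentile 5.08) on its flank. At chr12:53264217-53264692 the percentiles were 76.2, 74.3 and 77.6 in the same order, and at chr12:53298830-53299329 they were 37.3, 48.0 and 80.9. At chr12:53259040-53259515 BRD8 stood at percentile 23.7 in Calu3 and 74.1 in 16HBE14o-, with CTCF at 14.7. The Calu3 percentile was thus lower by a difference of -50.4 points, the lowest of the 19 sites, and 11.6% of shared Calu3 peaks had a difference at least as low. This site, too, was picked as the extreme of the 19. The exception was chr12:53278498-53278973, with BRD8 in Calu3 alone at percentile 77.4 over CTCF at 34.8. Its BRD8 percentile exceeded that of CTCF by 42.7 points, which 5.67% of Calu3 BRD8 peaks at CTCF equalled or passed.

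In the high edge of the type II window, on the EIF4B side, all 3 BRD8 peaks of each line were shared. In the whole lists 50.1% of Calu3 and 43.4% of 16HBE14o- BRD8 peaks were. At chr12:53374661-53374972 BRD8 ranked 148 in Calu3 (percentile 98.5) and stood at percentile 93.0 in 16HBE14o-, with CTCF at 66.0. The Calu3 BRD8 percentile was 32.5 points above that of CTCF, and 11.2% of Calu3 BRD8 peaks at CTCF reached that difference. At chr12:53321136-53321611 the percentiles were 57.0 for BRD8 in Calu3, 25.0 for BRD8 in 16HBE14o- and 69.3 for CTCF. At chr12:53369997-53370472 BRD8 was listed in both lines without CTCF, at percentile 28.6 in Calu3 and 62.9 in 16HBE14o-, with summits 8 bp apart.

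**Figure D4:**
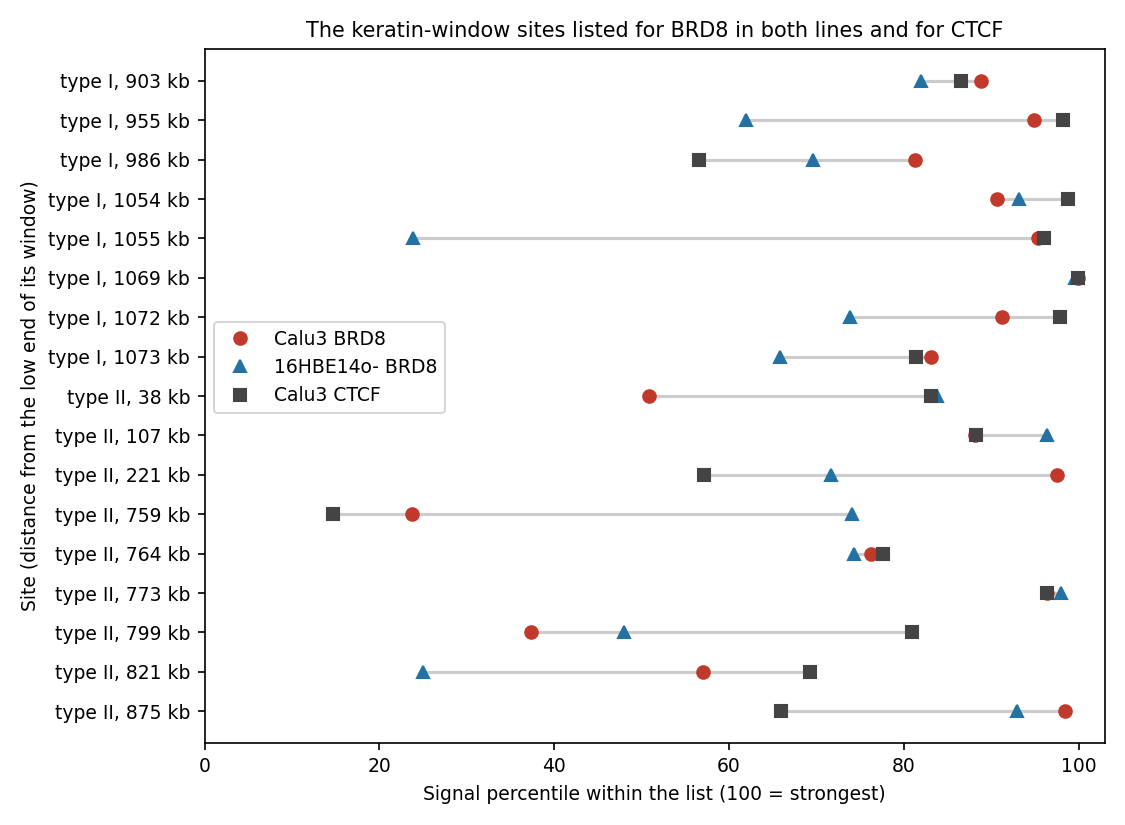
Signal percentile of BRD8 in Calu3 (circles), BRD8 in 16HBE14o- (triangles) and CTCF in Calu3 (squares) within each list (x axis) at the 17 sites where all 3 lists meet, by window and distance from its low end (y axis). The spread is narrow at the type I site at 1069 kb and the type II site at 773 kb and widest at the type I site at 1055 kb.

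Set side by side, the shared BRD8 sites ranked differently in the 2 clusters. In the type I window 7 of 8 shared sites had a higher percentile in Calu3 than in 16HBE14o-, with a median difference of 14.5 points (-2.55 to 71.6). In the type II window 4 of 11 did, with a median of -8.20 points (-50.4 to 32.1). Of all shared Calu3 BRD8 peaks 48.6% had the higher percentile in Calu3, with a median difference of -0.672 points. That share counts peaks, whereas the window values count sites by their strongest Calu3 peak. Counted by peak, 11 of 20 over both windows were higher in Calu3, with a median difference of 1.11 points. The type I sites include chr17:39705170-39705859, shared only through the width of the peaks. Neighbouring sites are not independent, and the difference between the clusters was not tested. Signal also went with CTCF in Calu3: the 6 BRD8 peaks without CTCF had percentiles of 5.42 to 35.6 with a median of 22.3, and the 21 with CTCF had a median of 83.1. In 16HBE14o- the 4 without CTCF had a median of 68.8 (30.5 to 78.5), and the 23 with CTCF one of 71.7. The medians of the whole lists, without and with CTCF, were 33.3 and 58.7 in Calu3 and 31.5 and 60.5 in 16HBE14o-. CTCF was not mapped in 16HBE14o-, so a 16HBE14o- site without a Calu3 CTCF peak may still bind CTCF. Likewise, a 16HBE14o- site at a Calu3 CTCF peak may lack CTCF in 16HBE14o-.

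BRD8 and CTCF summits mostly fell close together. Where the peaks overlapped, the Calu3 BRD8 summit lay a median of 20.0 bp from that of CTCF (0 to 338 bp, 21 peaks), against 37.0 bp over the whole list. The 16HBE14o- BRD8 summit lay a median of 24.0 bp from that of CTCF (2 to 61 bp, 23 peaks), against 19.0 bp. Peak width bears on these distances: 21 of 27 Calu3 BRD8 peaks here had the usual width of 476 bp, all 27 of 16HBE14o- that of 224 bp, and 20 of 36 CTCF peaks that of 290 bp.

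The ends of the windows fell between peaks. At the high end of the type I window the last peaks inside lay 4.50 kb from the limit for Calu3 BRD8, 26.5 kb for 16HBE14o- BRD8 and 5.57 kb for CTCF, and the first peaks outside lay 44.4, 2.42 and 2.42 kb beyond it in the same order. At its low end the nearest peaks inside lay 731, 26.4 and 198 kb from the limit and those outside 262, 33.3 and 218 kb. At the low end of the type II window the first summits inside were at 52515432 for Calu3 BRD8, 52514005 for 16HBE14o- BRD8 and 52513995 for CTCF, and the nearest outside lay 22.6, 22.6 and 36.6 kb before the limit. At its high end the distances were 25.2, 25.1 and 25.2 kb inside and 59.9, 41.2 and 41.2 kb outside.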

How the data were processed

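BRD8 was immunoprecipitated from sonicated nuclei of Calu3 and 16HBE14o-, and CTCF from Calu3. The authors combined the 2 replicates of each experiment into 1 list by the irreproducible discovery rate, per the labels of the series. Per the file headers, the 3 lists are narrowPeak tables on hg19. Alignment, peak calling, any control library and the settings used are not given in the sources used here. The authors' deposited signal column was used to rank peaks, as a percentile of the list where 100 is the strongest. The signals themselves were not compared between lists, but their percentiles were. The lists differ in length and the depth of the libraries is unknown, so equal percentiles need not mean equal binding. The deposited score columns were not used for results. The deposited summit offset, another kind of number, placed each summit.

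Peaks were taken as overlapping from 1 shared bp on, using scipy 1.17.1, pandas 2.3.3 and numpy 2.4.6 under Python 3.11.15. The counts equalled those of bedtools 2.31.1. The overlap function also found every partner placed at the summits of randomly drawn Calu3 BRD8 peaks, a draw that did not check for false partners. Intervals are exact Clopper-Pearson intervals at 95%; the interval of a ratio comes from the binomial division of peaks between the lists. Chromosome lengths came from GenomeInfoDb 1.38.1, and figures were drawn with matplotlib 3.10.9. Edges are the outer 100 kb of each window, because no hg19 annotation was used. Sites were named where a list had at most 12 peaks in a window, else for the 6 strongest, for sites of all 3 lists and for the outermost sites; the remaining sites were added after their values were seen. The windows, the comparisons and the keratins named were chosen with earlier results of these data known. The comparisons of 100 kb stretches, gaps and percentile differences were chosen after the values were seen. No test was run, since peaks are not replicates.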

Additional observations from a re-analysis of the deposited data

How the results depend on the processing

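Of 86 recomputed values, 40 counts stayed within 1.5 times the reported number and 28 shares and ratios within the reported interval. Under a reciprocal overlap of at least 50% CTCF was found at 48.1% of Calu3 BRD8 peaks and Calu3 BRD8 at 36.1% of CTCF peaks. Peak width limits both values, since some CTCF peaks are too narrow to meet a Calu3 BRD8 peak of 476 bp. Between the lines that criterion gave 22.2% in Calu3 and 22.2% in 16HBE14o-, values fixed by peak width: 6 of the 27 Calu3 peaks were narrow enough to meet it with a peak of 224 bp, and all 6 did. They are therefore no measure of how far the lines share sites. With peaks set to 200 bp 66.7% of BRD8 peaks of either line were shared, and with summits within 100 bp 59.3%. No whole-list share was computed for summits within 100 bp, so the 59.3% could not be set against the lists. Keeping the upper 50% of each list left 17 Calu3 BRD8 peaks, 5 of them inside and 3 at the edges of the type II window. CTCF overlap was then 75.0% for 16HBE14o- BRD8 (15 of 20) and 88.2% for Calu3 BRD8 (15 of 17). No whole-list overlap share was computed in the upper 50%. With edges of 50 kb CTCF had 5 peaks at the type II edges. With edges of 200 kb the type I window held 1 BRD8 peak inside for Calu3, 1 for 16HBE14o- and 5 CTCF peaks, with 11 CTCF peaks at its edges. The type II window then held 2 BRD8 peaks inside and 14 at the edges for Calu3, 2 and 15 for 16HBE14o-, and 3 and 17 CTCF peaks. The ratio of list shares, Calu3 over 16HBE14o-, was 1.08 after overlapping peaks were merged and 0.827 in the upper 50%. No paired analysis was possible because the deposited lists pool the replicates, and for the same reason no replicate could be left out. Windows with this few peaks give wide intervals, and the depth of the libraries is unknown.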
